A study of Mus musculus with 20 samples.

Results

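Gpnmb Trem2 macrophages were examined in interscapular brown adipose tissue (iBAT) of mice by single-cell RNA-seq. They are the cells called MAC1 or lipid-associated macrophages. A cell counted as a member when the summed corrected counts of Gpnmb, Trem2, Atp6v0d2 and Syngr1 were at least 4, those of the macrophage genes C1qa, C1qb and Csf1r at least 2, those of the resident macrophage genes Lyve1, Cd209f, Cd209g and Fcna below 2, and those of the lymphocyte genes Cd79a and Cd3e below 1. Of 50165 Lin+ cells, 4640 (9.25%) met this gate, and a further 9356 passed only its macrophage part and are the comparison cells here, called other macrophage-gated cells. The members were chosen by these corrected counts in the same libraries, so the high levels of its own genes in the members are a description and not a result.

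Lin+ cells are stromal vascular cells held on magnetic beads by antibodies to CD5, CD11b, CD45R (B220), Gr-1 (Ly-6G/C), 7-4 and Ter-119. The libraries are 10, each from a pool of 3 to 4 mice aged 8 to 14 weeks. Male C57BL/6J mice were kept at 24 °C (RT), moved to 6 °C for 4 days (COLD), or infused with CL316,243, an agonist of the β3-adrenergic receptor, at 0.75 nmol per hour for 4 days (CL), with 2 libraries per group. Female mice of an Adrb1 line were all homozygous for a floxed Adrb1 allele and all given tamoxifen. They either lacked the Pdgfra-CreERT2 allele (WT) or carried 1 copy (KO), so that the deletion was aimed at Pdgfra-expressing cells and not at macrophages. There was 1 library each of WT RT, KO RT, WT COLD and KO COLD. The RT libraries of that line were made with version 3 of the Chromium kit and all others with version 2, so kit and temperature cannot be told apart there. Of the 10 libraries, 6 held at least 20 members: both C57 COLD, both C57 CL, WT COLD and KO COLD. Replicates are separate pools, and p-values measure the spread between them. Library pairs shared 0 to 92 cell barcodes.

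Lipid-associated macrophages are known from obese adipose tissue and from atherosclerotic and dying tissue, where they take up lipid and cell debris. TREM2 is a surface receptor for lipids and lipoproteins that signals through the adaptor TYROBP, GPNMB is a transmembrane glycoprotein of late endosomes and lysosomes, ATP6V0D2 is a subunit of the vacuolar ATPase that acidifies lysosomes, and SYNGR1 is a vesicle membrane protein. Osteopontin, encoded by Spp1, is a secreted matrix protein of such cells that was not part of the gate.

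The promoters of the gate genes and of Spp1 were read from RefSeq (GRCm38.p6, 250 bases before to 50 bases after the start). Of Gpnmb, Trem2, Atp6v0d2, Syngr1 and Spp1, 4 were matched, without Atp6v0d2. The AP-1 motif TGANTCA, searched on both strands since it is its own reverse complement, stood in those of Gpnmb and Trem2, and in 7.81% of all 32851 promoters. The E-box CACGTG, the core of the motif read by the MiT factors that switch on lysosomal genes, was in none of these 4 and in 7.15% of all promoters. Of the 20 genes that stood highest over other macrophage-gated cells in this study, 16 were matched, without Fabp5, Ctsb, Fabp4 and Lpl. CACGTG was present at Ctsd and Ctsl and TGANTCA at Igf1 and Mmp12, 2 of 16 each. The sequences of Gpnmb and Trem2, the 2 genes the cells are named for, and of Ctsd, a lysosomal protease with 2 copies of CACGTG, follow 5′ to 3′ on the strand of the gene, with the motif in capitals. A match is only a match of letters.
Gpnmb (chr6:49036268-49036567, plus strand): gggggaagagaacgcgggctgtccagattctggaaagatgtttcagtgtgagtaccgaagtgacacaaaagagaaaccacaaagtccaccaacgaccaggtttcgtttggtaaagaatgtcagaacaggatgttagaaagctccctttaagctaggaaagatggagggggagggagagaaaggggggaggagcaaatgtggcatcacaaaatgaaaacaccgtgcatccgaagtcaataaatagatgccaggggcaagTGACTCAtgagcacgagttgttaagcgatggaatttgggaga
Trem2 (chr17:48346151-48346450, plus strand): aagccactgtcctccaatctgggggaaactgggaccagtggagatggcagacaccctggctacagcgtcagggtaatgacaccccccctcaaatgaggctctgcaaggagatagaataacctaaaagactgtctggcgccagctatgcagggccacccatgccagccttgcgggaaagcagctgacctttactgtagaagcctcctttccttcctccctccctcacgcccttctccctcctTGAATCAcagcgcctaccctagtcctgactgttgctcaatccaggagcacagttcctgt
Ctsd (chr7:142387778-142388077, minus strand): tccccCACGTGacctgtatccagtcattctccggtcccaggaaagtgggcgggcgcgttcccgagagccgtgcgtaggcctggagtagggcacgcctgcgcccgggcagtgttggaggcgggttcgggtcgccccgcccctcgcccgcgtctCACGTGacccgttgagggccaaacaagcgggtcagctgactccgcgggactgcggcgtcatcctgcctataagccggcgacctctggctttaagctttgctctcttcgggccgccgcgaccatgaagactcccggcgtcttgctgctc
The first base of the motif lies 9 bases into the transcript at Gpnmb and 9 bases before the start at Trem2. At Ctsd the copies begin 245 and 98 bases before the start.

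The first comparison asked how common these macrophages were in each condition. They were rare at RT and frequent after cold or CL, and the libraries of a group were not equally rich in them. At RT they made up 0.319% (exact 95% binomial interval 0.170 to 0.545, 13 of 4072 cells) and 0.358% of Lin+ cells (16 of 4472) in the C57 libraries, 0.158% in WT RT (5 of 3167) and 0.319% in KO RT (7 of 2196). In C57 COLD they made up 20.7% (19.8 to 21.6, 1587 of 7676) and 17.6% (16.6 to 18.5, 1077 of 6136). In C57 CL they made up 19.7% (18.7 to 20.8, 1114 of 5644) in replicate 1 but 5.35% (4.75 to 6.01, 273 of 5100) in replicate 2. WT COLD held 5.46% (4.97 to 5.97, 447 of 8193) and KO COLD 2.88% (2.35 to 3.49, 101 of 3509). Every library after cold or CL lay above every RT library, and these intervals cover counting error only.

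**Figure D1:**
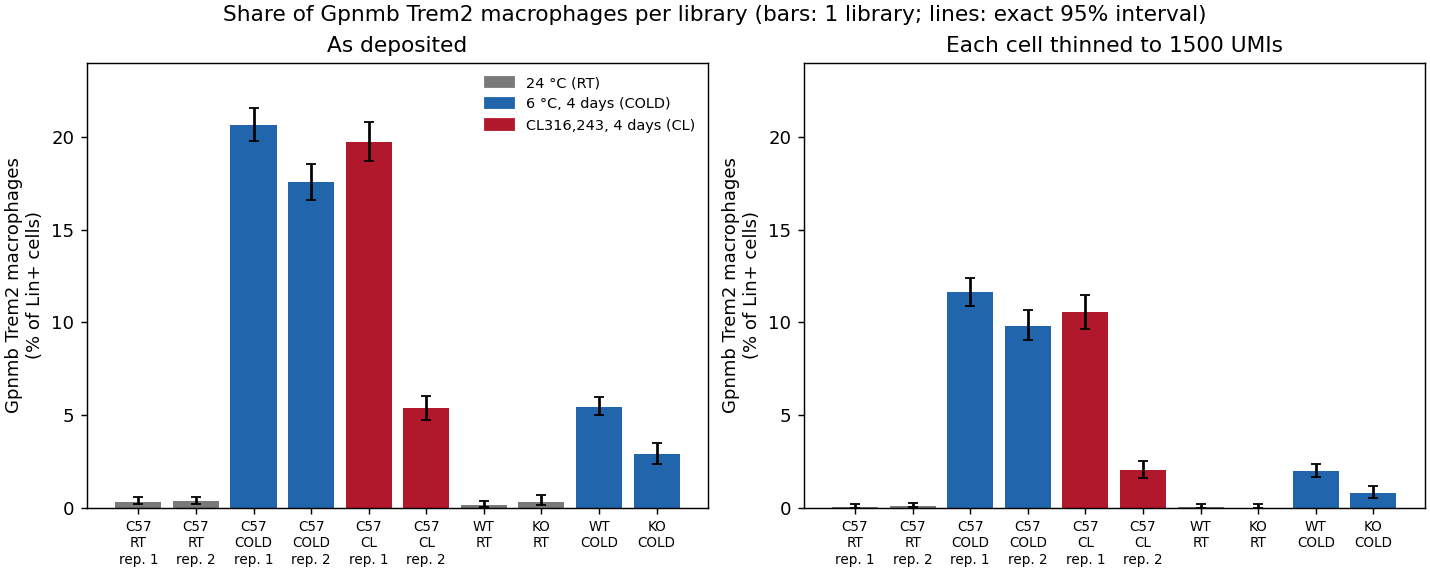
Share of Gpnmb Trem2 macrophages among Lin+ cells of each library, in percent, with the exact 95% binomial interval. Shares are from the counts as deposited and after thinning cells to 1500 UMIs, which left out cells with fewer. Bars are single libraries, and the left and right panels show these 2 settings. The 4 RT libraries lie at or below 0.358%, C57 COLD and C57 CL replicate 1 between 17.6% and 20.7% before thinning, and C57 CL replicate 2, WT COLD and KO COLD between these levels.

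In C57 mice the mean share was 0.339% ± 0.0272 (SD, n = 2) at RT, 19.1% ± 2.21 (n = 2) in COLD and 12.5% ± 10.2 (n = 2) in CL. COLD exceeded RT by 18.8 percentage points, and CL exceeded RT by 12.2, and an exact permutation test over libraries (two-sided) gave p = 0.333 for both, the smallest that 2 against 2 allows. COLD exceeded CL by 6.57 points (exact p = 0.667), a difference smaller than the spread between the CL libraries, and without CL replicate 2 the sign turned (-0.624 points). Over both lines, COLD averaged 11.6% ± 8.79 (n = 4) and RT 0.288% ± 0.0889 (n = 4). The gap of 11.4 points had p = 0.0286 (two-sided exact permutation test over libraries, the smallest that 4 against 4 allows), and p was 0.0857 without any 1 of the RT libraries. The test shuffled libraries freely across lines, sexes and kits and did not use the pairs below, so its p ignores line and pairing. The share was higher in 4 of 4 COLD libraries than in the RT library of the same line and genotype or number, by 64.8 and 49.1 times in C57, 34.6 times in WT and 9.03 times in KO mice.

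The genotypes were compared with 1 library at each temperature. KO COLD had 0.528 times the share of WT COLD (counting interval 0.421 to 0.656), whereas KO RT had 2.02 times that of WT RT (0.552 to 8.07) on 7 and 5 cells. The mean difference, KO minus WT, was -1.21 points (exact p = 1; smallest possible 0.333), and it turned positive without KO RT or without WT COLD. The genotype difference in the cold rests on a single pair of pools.

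The gate reads summed counts, and the members were deep cells, with medians of 5225 to 10516.5 UMIs per library against 2951 to 5821 in other macrophage-gated cells. Cells were also thinned to 1500 UMIs, and those with fewer, 119 to 1619 per library, were left out. Of the cells kept, 0.0356% and 0.0910% passed the gate in C57 RT, 11.6% and 9.83% in C57 COLD and 10.5% and 2.01% in C57 CL. In WT RT 0.0340% passed, in WT COLD 1.99% and in KO COLD 0.771%. None of 2077 KO RT cells passed then, and the exact interval reaches 0.177%. Every COLD and CL library still lay above every RT library. Among macrophage-gated cells alone, the members made up 59.9% and 62.7% in C57 COLD, 34.8% and 22.1% in C57 CL, 26.2% in WT COLD, 15.0% in KO COLD and 0.935% to 1.72% in the RT libraries, so on this base both COLD libraries lay above both CL libraries (exact p = 0.333). In the C57 COLD libraries 107 and 55 cells lay just outside the threshold with a gate sum of 3 to under 4, and 107 and 72 members just inside it with a sum of 4 to under 5. In the C57 CL libraries these were 209 and 46 cells outside and 153 and 47 inside, where members had lower sums (medians of 9.98 and 10.9 against 16.8 and 17.4 in COLD).

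Which of the gate genes carried a cell past the gate differed between conditions, as a description. At least 1 count of Gpnmb was present in 81.5% and 81.3% of members in C57 COLD, 85.0% in WT COLD and 78.2% in KO COLD, but in 53.1% and 46.5% in C57 CL and 38.5% and 31.2% in C57 RT. Trem2 was present in 93.4% to 98.9% of members of the C57 COLD and CL libraries and in 76.3% and 78.2% in WT and KO COLD. Atp6v0d2 was present in 6.93% to 31.6% of members of the 6 libraries. In C57 COLD, Gpnmb was present in 89.3% and 91.1% of the members that passed the gate again on counts thinned to 1500 UMIs. The gate reads Gpnmb, so its share in the members follows in part from the gate. At the same 1500 UMIs, Gpnmb was present in 6.67% and 4.13% of lymphocyte-gated cells there. Lymphocytes should lack the gene, so those shares serve as its background here, and the source of these counts was not tested. Summed over members, Gpnmb stood at 1747 and 1834 counts scaled to a total of 1e6 (CPM) in C57 COLD, 921 and 729.95 in C57 CL, 1312 in WT COLD and 1217 in KO COLD.

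The label was checked against genes that the gate did not read. Spp1 was at 1658 and 1934 CPM in C57 COLD, 2547 and 797 in C57 CL, 4280.4 in WT COLD and 3762 in KO COLD. Other macrophage-gated cells held 567 and 240.1 CPM in C57 COLD, 713 and 73.0 in CL, 1283 in WT COLD and 895 in KO COLD. Spp1 was higher in the members in 6 of 6 libraries, by a median log2 ratio of 1.95, computed here and below on CPM + 1. At RT, where 13 and 16 C57 cells passed, Spp1 was at 238 and 378 CPM and was seen in 3 cells of each library, so at RT the name rests on few cells. These comparisons with other macrophage-gated cells carry no test, because the gate chose the cells.

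Of the 20 genes with the highest ratio, 5 were on the lipid-handling list and 4 on the lysosomal list. The share of these lists among all genes ranked was not counted, so nothing is read from these counts. Fabp5, a carrier of fatty acids in the cytosol, led the 20 genes with a median log2 ratio of 2.83 (range 2.25 to 3.19 over 6 libraries). It stood at 3169 and 2929.7 CPM in C57 COLD, 2935 and 1305 in C57 CL, 4686 in WT COLD and 3025 in KO COLD. All 6 of these values lie above all 6 of the other macrophage-gated cells, which ran from 144 to 874 CPM. Mmp12, macrophage elastase, followed at 2.59, and then the lysosomal proteases Ctsl (2.06) and Ctsd (2.05), Spp1 (1.95), the growth factor gene Igf1 (1.85), the lysosomal tetraspanin gene Cd63 (1.73) and the galectin gene Lgals3 (1.56). The others were Ctsb (1.40), Vat1 (1.34), the fatty acid translocase Cd36 (1.28), Fabp4 (1.28), the lysosomal Pld3 (1.27) and Creg1 (1.20), the tetraspanin Cd9 (1.20), lipoprotein lipase Lpl (1.18), the ferritin chains Fth1 (1.11) and Ftl1 (1.08), Gstm1 (1.10) and the metalloprotease Adam8 (1.07). Of these 20 genes, 19 were higher in the members in all 6 libraries, and Fabp4 in 5, with a log2 ratio of -0.51 in C57 CL replicate 1. Fabp4 is also a gene that the authors took as not expressed when they estimated free RNA, so its level depends on that correction.

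**Figure D2:**
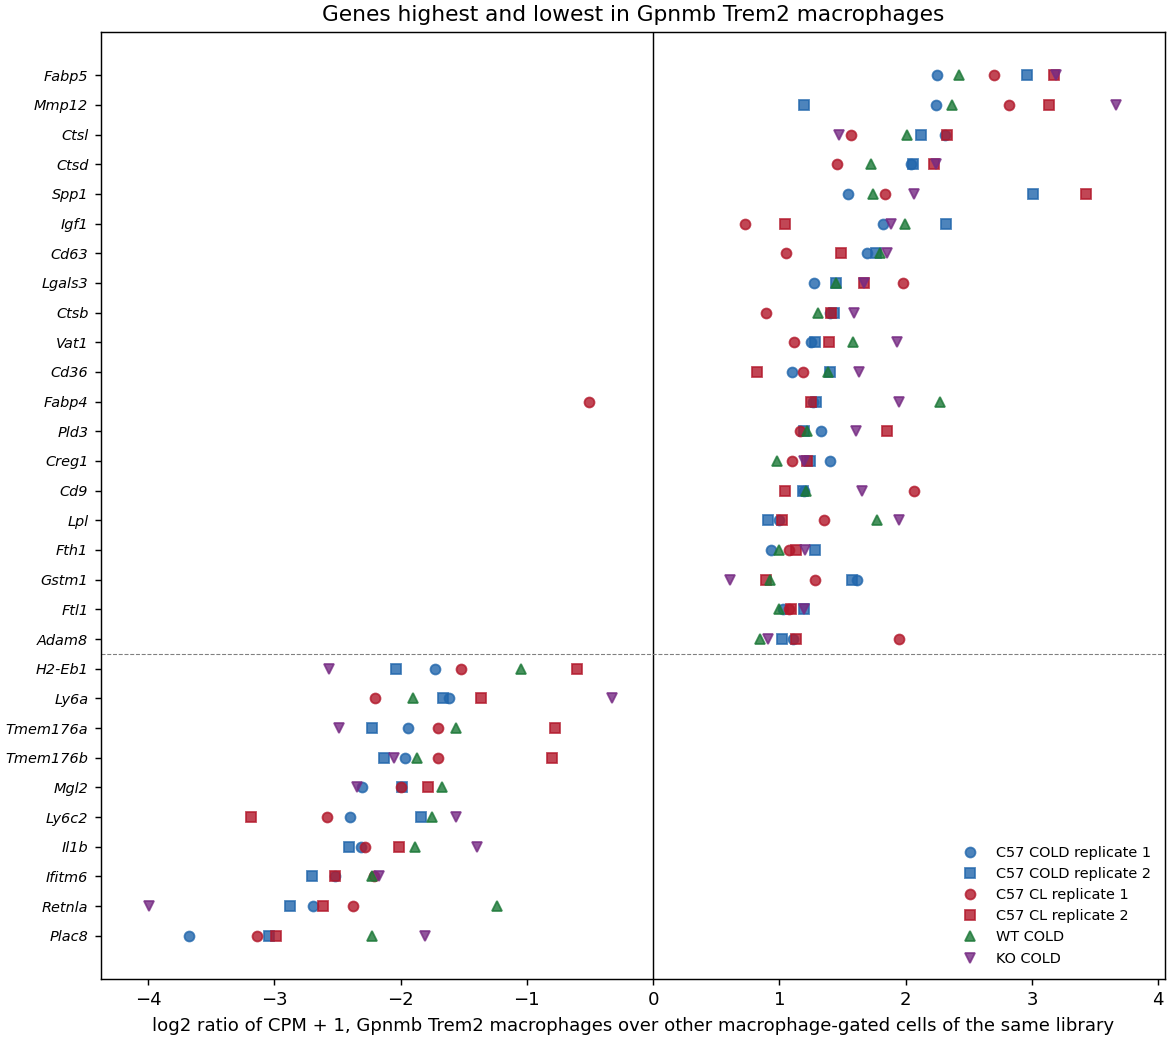
log2 ratio of CPM + 1 in Gpnmb Trem2 macrophages over other macrophage-gated cells of the same library, for the 20 genes highest and the 10 lowest by median, with 1 point per library (6 libraries). The points of the upper genes lie above 0 except Fabp4 in C57 CL replicate 1, and those of the lower genes lie below 0.

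Lists of genes give the breadth of this profile. Of 10935 genes measured well enough to be tested in the members, 10.5% were above and 19.1% below other macrophage-gated cells in all 6 libraries. Among the 960 genes at 100 CPM or more in the members of every one of the 6, 231 were above and 252 below, so well-expressed genes have a higher background. Gate, mitochondrial, ribosomal, unnamed and sex-linked genes were left out of those 960. Of 22 lysosomal hydrolase and membrane genes, 17 were higher in all 6 and none lower in all 6, with a median log2 ratio of 0.74 against -0.06 over all genes. Of 21 lipid-handling genes, 11 were higher in all 6, such as Plin2, the coat protein of lipid droplets (1.01), and Lipa, the acid lipase of lysosomes (1.06). The vacuolar ATPase and its regulators had 9 of 14 genes higher in all 6, including Mitf (0.43), and Tfe3 lower in all 6 (-0.24). Of 10 iron and heme genes, 7 were higher in all 6, such as the heme transporter Slc48a1 (1.02). Of 15 genes for the uptake of dead cells, Mertk (0.84), Lrp1 (0.62), Itgav (0.16) and Cd9 were higher in all 6. Tyrobp, the adaptor of TREM2, was near the level of other macrophage-gated cells (0.04). Of 16 matrix genes 5 were higher in all 6 and 5 lower, among the latter Fn1 (-1.13) and Mmp9 (-1.35). Of 17 sterol synthesis genes none was higher and 6 were lower in all 6, such as Insig1 (-0.79). Growth factor genes were divided, with 5 of 14 higher in all 6 (Igf1, Pdgfa, Vegfb, Gdf15 and Gdf3) and 5 lower.

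Antigen presentation, monocyte and early-response genes stood lower in these cells than in other macrophage-gated cells. All 8 MHC class II genes were lower in the members in all 6 libraries, with a median log2 ratio of -1.42. H2-Ab1, a chain of the class II molecule, was at 2005 and 1798 CPM in C57 COLD, 1534 and 5166 in C57 CL, 1293 in WT COLD and 585 in KO COLD, against 6636, 7485, 4024, 7585, 2801 and 3453 in other macrophage-gated cells of the same libraries. C57 CL replicate 2 stood apart, above the other 5 libraries. The 10 genes with the lowest ratios were Plac8 (-3.01), Retnla (-2.65), Ifitm6 (-2.37), Il1b (-2.15), Ly6c2 (-2.12), Mgl2 (-1.99), Tmem176b (-1.92), Tmem176a (-1.82), Ly6a (-1.64) and H2-Eb1 (-1.62). Plac8 and Ly6c2 mark monocytes, Retnla and Mgl2 mark alternatively activated macrophages, and Il1b encodes an inflammatory cytokine. Of the 10 monocyte markers, all were lower in all 6 libraries. So were 13 of 15 stress and immediate early genes, 6 of 11 cytokine genes and 11 of 20 chemokine and receptor genes. The monocyte list summed to 517 to 3488 CPM in the members and 2422 to 10093 in other macrophage-gated cells. The macrophage part of the gate reads no gene that excludes monocytes or dendritic cells. Such cells may be among the comparison cells, and their part in these ratios was not tested.

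Markers of cells outside the macrophage lineage were unequal in the members. Summed over the list of each cell type in the 6 libraries, dendritic cell markers came to 166.5 to 239 CPM (341 to 470.1 in other macrophage-gated cells), lymphocyte markers to 58.4 to 236 CPM (128 to 394), endothelial markers to 25.5 to 85.6 CPM (27.6 to 88.5) and stromal markers to 137 to 316 CPM (145 to 319.8). Adipocyte markers, a list that holds Fabp4, came to 244 to 1315 CPM against 104 to 616, and were higher in the members than in other macrophage-gated cells in 5 of 6 libraries, all but C57 CL replicate 1. Fabp4 alone stood at 459 and 400.1 CPM in C57 COLD, 282 and 219.8 in C57 CL, 1305 in WT COLD and 384 in KO COLD members. Adipoq was at 5.59 CPM or less in the members of every one of the 6. Neutrophil markers ranged from 165 CPM in C57 COLD replicate 1 to 3054 in C57 CL replicate 2 and 3606 in KO COLD (529 to 8114 in other macrophage-gated cells). Hemoglobin and other erythroid genes ranged from 1778 to 5293 CPM against 1626 to 15652, with C57 COLD replicate 1 (1887 against 1626) and C57 CL replicate 1 (1778 against 1773) the libraries where the members were not lower. The defining adipocyte genes Adipoq, Plin1 and Cidea were at 0 in KO COLD members and were detected in members of the other 5 libraries. The part of such RNA in the results was not tested.

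**Figure D3:**
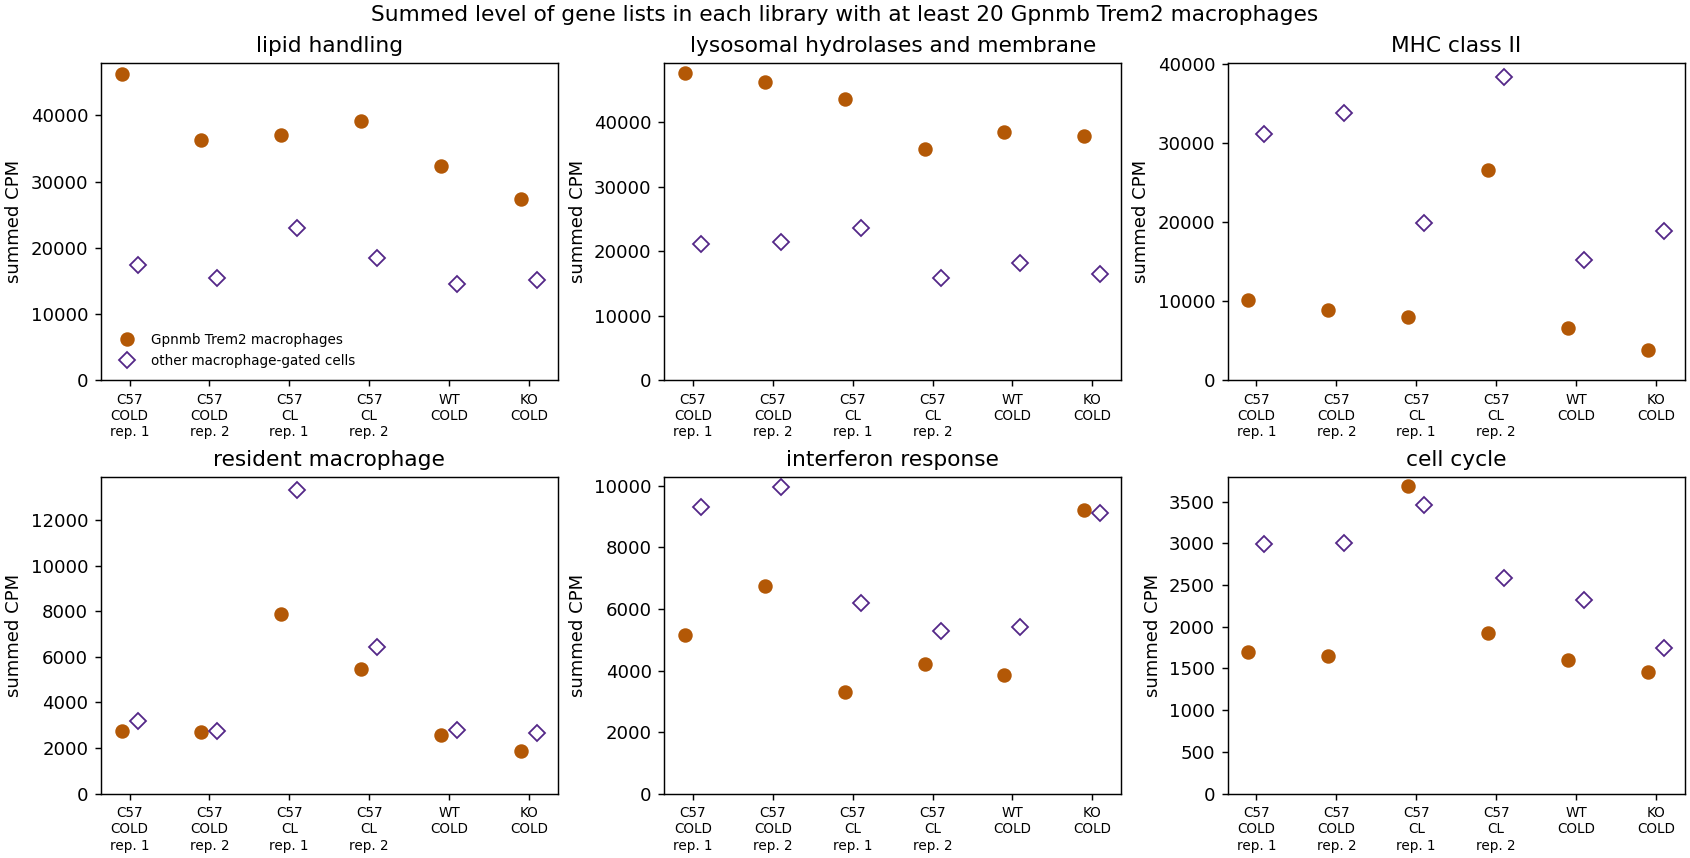
Summed CPM of 6 gene lists in Gpnmb Trem2 macrophages (filled) and other macrophage-gated cells (open) of the 6 libraries with at least 20 members. Lipid-handling and lysosomal genes are higher and MHC class II genes lower in the members in each library, resident macrophage genes are higher in both CL libraries than in the others, and the cell cycle list peaks in C57 CL replicate 1.

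The members were not uniform. Binned by the gate sum (4 to under 8, 8 to under 16, and 16 or more), cells with a higher sum held more Spp1, at 815, 1188 and 2079 CPM in C57 COLD replicate 1 and 171, 669 and 1491 in C57 CL replicate 2. Fabp5 rose along the bins in the same way in all 6 libraries, from 1399 to 4157 CPM in C57 COLD replicate 1. H2-Ab1 went the other way, from 4345 to 1074 CPM in C57 COLD replicate 1 and from 7755 to 2125 in C57 CL replicate 2, and was lower in the top bin than in the bottom bin in 6 of 6 libraries. Depth moved with the bins, with a median of 5646 UMIs per cell in the lowest and 8402 in the highest bin of C57 COLD replicate 1, and its part in these gradients was not tested. Cells expressing cycling genes were 4.27% to 5.94% of members in 5 of the 6 libraries and 13.6% in C57 CL replicate 1. Among members that passed the gate again after thinning they were 5.46% there and at most 1.53% in the other 5. Among other macrophage-gated cells, gated before thinning, the thinned share was 7.42% in C57 CL replicate 1 and 2.01% to 5.39% in the other 5. Members that failed the gate after thinning are in neither set, so whether members cycled less was not tested. Among lymphocyte-gated cells the thinned share was 13.6% in C57 CL replicate 1 and 0.304% to 4.58% in the other 5.

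**Figure D4:**
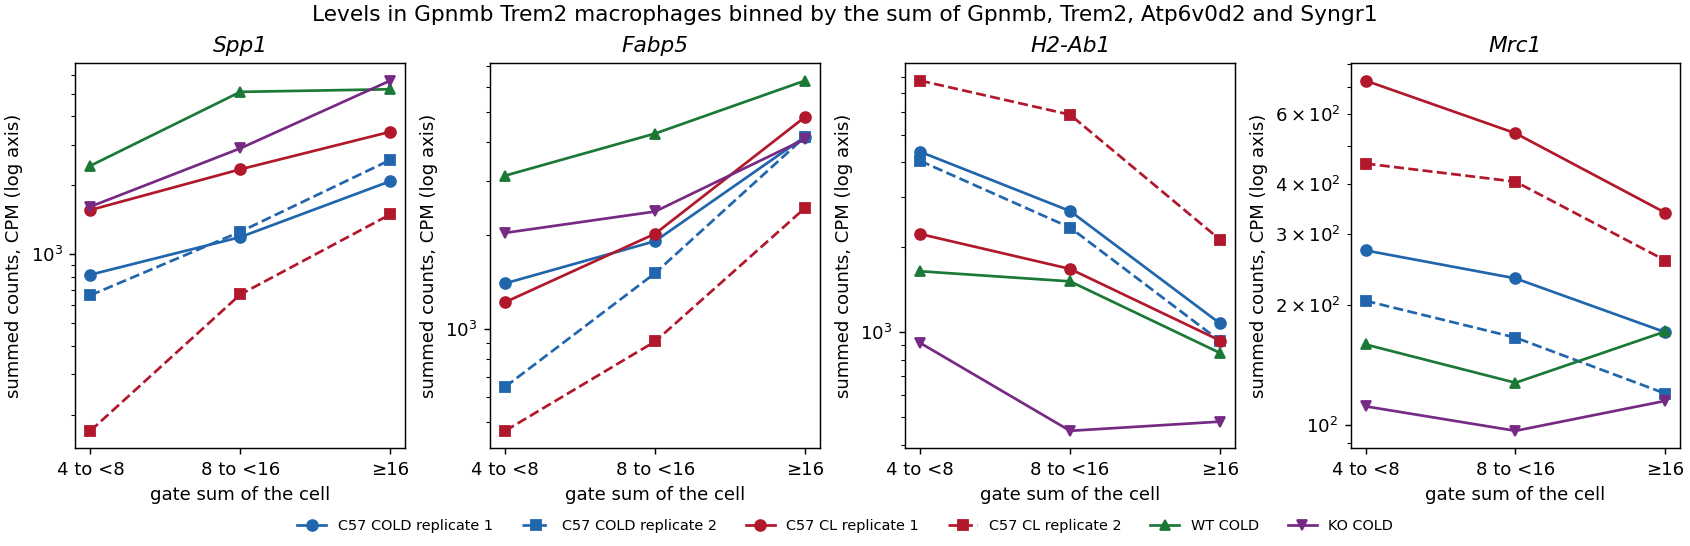
CPM (log axes) of Spp1, Fabp5, H2-Ab1 and Mrc1 summed over Gpnmb Trem2 macrophages in 3 bins of the gate sum, 1 line per library. Spp1 and Fabp5 are higher and H2-Ab1 lower in the top bin than in the bottom bin in all 6 libraries, and Mrc1 is highest in both CL libraries.

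The second comparison asked whether these macrophages differed between cold and direct β3-adrenergic stimulation in C57 mice, and it could be tested because all 4 libraries held many members. Among the genes lower in COLD than in CL were 4 of the 13 resident macrophage genes tested. With edgeR's quasi-likelihood test and Benjamini-Hochberg adjustment, 19 of 10935 genes (0.174%) passed an adjusted p of 0.05, of which 2 were higher (0.0183%) and 17 lower (0.155%) in COLD, and 1584 (14.5%) had an unadjusted p under 0.05. The replicate number was taken to mark experiments run together, which the labels do not state outright. With it as a block 232 genes passed (2.12%), 80 higher (0.732%) and 152 lower (1.39%), the 19 among them. The block adds a coefficient to a fit of the same 4 libraries, which leaves few residual degrees of freedom. DESeq2 called 189 of 11940 (1.58%). Either CL library alone against both COLD libraries gave 862 or 976 calls, and these included the same 19. With a COLD library left out fewer of them stayed: 49 genes passed without COLD replicate 1, with 13 of the 19 among them, and 14 without COLD replicate 2, with 9 of the 19. A lone library is assumed there to vary like the other pair. With the gate sum raised to 6 no gene passed (1341 had an unadjusted p under 0.05), and the 12 named genes then had edgeR adjusted p of 0.0842 to 0.117, so the calls lie near the threshold.

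Cd163, the scavenger receptor for hemoglobin and haptoglobin, showed the largest fall among the genes that passed. It was at 2.93 and 1.57 CPM in COLD and 41.1 and 41.4 in CL, a log2 difference of -4.11 ± 0.28 (SE; adjusted p = 0.0299). Ccl8, a chemokine of resident macrophages, was at 157 and 238 CPM in COLD against 2390.2 and 1152 in CL (-3.13 ± 0.36, adjusted p = 0.0462). F13a1, which encodes a transglutaminase chain, was at 73.5 and 62.0 CPM in COLD against 246 and 267 in CL (-1.93 ± 0.19). The eosinophil-attracting chemokine Ccl24 was at 11.9 and 8.70 against 51.6 and 48.4 (-2.25 ± 0.19). The naming rule required groups that did not overlap, which held for 43% of all genes tested. In the lowest gate-sum bin Ccl8 was at 171 and 237 CPM in COLD and 4022 and 1145 in CL. In the top bin it was at 161 and 208 in COLD and 1059 and 818 in CL. Members with at least 1 count of only 1 gate gene were 16.8% and 17.7% in COLD and 36.4% and 40.3% in CL. The part of this in the contrast was not tested.

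Other named falls were C4b (-3.83), Rcn3 (-2.55), Ifitm1 (-2.48), Fcrls (-1.68) and Ltc4s, the leukotriene C4 synthase (-1.57), with adjusted p between 0.0316 and 0.0462. The 2 genes that were higher in COLD were Phlda3, a target of p53, at 79.2 and 96.5 against 17.6 and 17.3 CPM (2.37 ± 0.19, adjusted p = 0.0316), and Ifi205, of the interferon-inducible p200 family, at 29.4 and 22.9 against 4.73 and 5.15 (2.47 ± 0.25, adjusted p = 0.0412). Cold members of the Adrb1 line took no part in the choice of these genes. They lay on the COLD side of both CL libraries in 10 of the 11 genes described here, in WT and in KO alike. The exception was Ifitm1 (69.7 and 76.9). The share of all genes on that side was not counted, and the line had no CL library. Its mice were female and the C57 mice male, so nothing is read from this count. Values of the cold Adrb1-line members were near the C57 COLD level for Ccl8 (139 CPM in WT, 88.4 in KO), C4b (2.13 and 0) and Rcn3 (2.93 and 2.26). They were further from it for F13a1 (132 and 121). For Cd163 WT COLD was at 4.56 and KO COLD at 25.5, and for Phlda3 they were at 47.3 and 63.6. C4b and Rcn3 are also made by stromal cells, and the stromal marker list summed to 205 and 235 CPM in COLD against 137 and 316 in CL members, so that its groups overlapped. Its 7 tested genes had a median log2 difference of -2.09 with 0 called and 5 at an unadjusted p under 0.05, and the medians of the neutrophil and adipocyte lists were -2.57 and -1.64 with 0 called. The block called 4 of 7 neutrophil genes (Camp, Retnlg, S100a8 and S100a9), 3 of 6 adipocyte genes (Adipoq, Cfd and Cidea) and the stromal gene Col1a1, all lower in COLD, and DESeq2 called 4 stromal genes (Col1a1, Col1a2, Col3a1 and Mfap5). The block and DESeq2 also called the lymphocyte gene Ighm lower in COLD (-1.79 in the fit without the block) and 2 of 10 monocyte markers higher, Ly6c2 (2.03) and Chil3 (1.32). Their part in these calls was not tested.

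**Figure D5:**
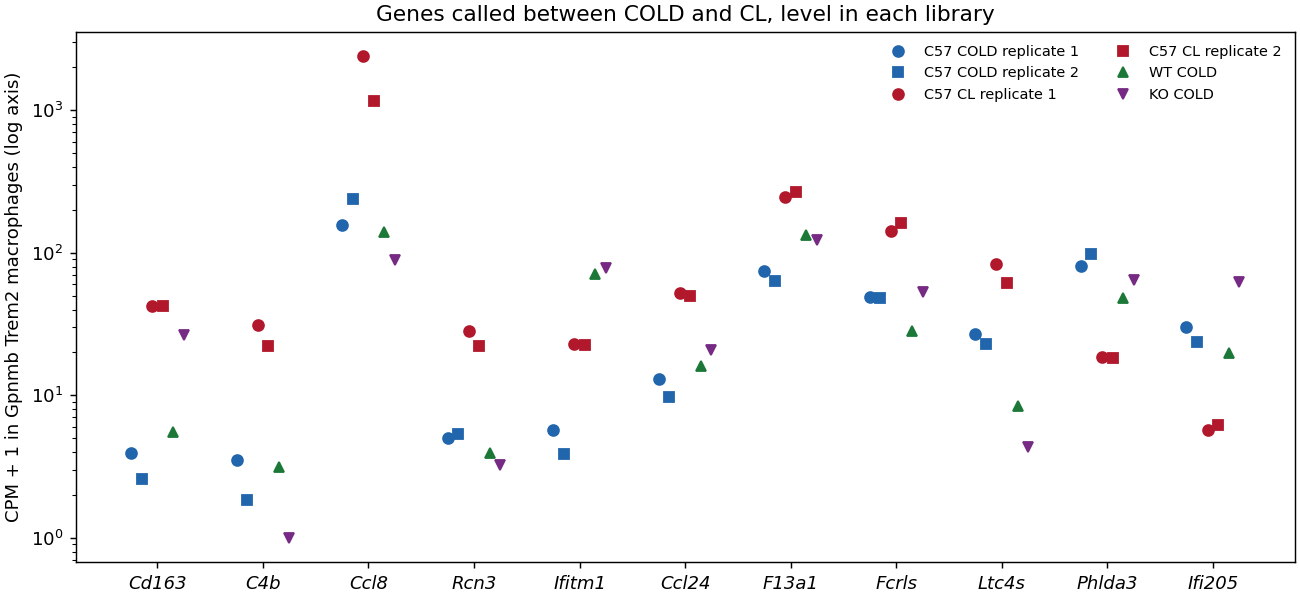
CPM + 1 (log axis) of 11 genes that passed between COLD and CL in Gpnmb Trem2 macrophages, 1 point per library, with the cold libraries of the Adrb1 line beside the 4 tested. For each gene both C57 COLD points lie on the same side of both CL points, as the choice of genes required.

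By lists, 4 of 13 tested resident macrophage genes passed, all lower in COLD (F13a1, Cd163, Clec10a and Ccl8), with a median log2 difference of -1.38 against -0.01 over all genes. With the replicate block 9 of 13 passed, adding the folate receptor Folr2, Cbr2, Gas6, the mannose receptor Mrc1 and Vcam1. Mrc1 was at 203 and 145 CPM in COLD and 512 and 369 in CL (-1.33 ± 0.21, edgeR adjusted p = 0.0811 without and 0.00879 with the block). The resident list summed to 2740 and 2697 CPM in COLD members and 7899 and 5455 in CL members. In other macrophage-gated cells it summed to 3182 and 2729 CPM in COLD and 13348 and 6434 in CL, so the fall was not particular to the members. The gate removed cells rich in Lyve1, Cd209f, Cd209g or Fcna by the same rule in every library, but not in equal numbers. Of cells with a gate sum of at least 4 it removed 21 and 3 in C57 COLD, beside 1587 and 1077 members. In C57 CL it removed 69 and 8, beside 1114 and 273 members. The part of this in the contrast was not tested. Fcna is among the 17 genes lower in COLD, but the gate used its level, so nothing is read from it.

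All 20 interferon response genes were on the COLD side, with a median log2 difference of 0.82, where 48.6% of all genes tested were on that side. None passed without the block (16 of 20 had an unadjusted p under 0.05, against 14.5% of all genes), and 10 of 20 passed with it, against 0.732% of all genes higher with the block: Ifit1, Ifit3, Ifit3b, Irf7, Isg15, Mx1, Oasl2, Rsad2, Usp18 and Zbp1. Isg15 was at 356 and 401 CPM in COLD and 136 and 170.2 in CL. The level of the list varied between cold pools too. It was at 5139 and 6733 summed CPM in C57 COLD, 3842 in WT COLD and 9217 in KO COLD. In C57 CL it was at 3313 and 4197, the latter above WT COLD. Other macrophage-gated cells also held more of it in C57 COLD, at 9325 and 9970 summed CPM against 6199 and 5269 in C57 CL.

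Among lipid and lysosomal genes, 0 of 21 lipid-handling and 0 of 22 lysosomal genes passed between COLD and CL, with medians of 0.11 and 0.13. With 0.174% of all genes called, such counts say nothing particular of these lists. The unadjusted p was under 0.05 for 9 of 21 and 5 of 22, against 14.5% of all genes, DESeq2 called Abca1, Fabp4, Ctsk and Ctss, and the block Abca1, Mgll, Nr1h3 and Ctsk. Ctsk, a collagen-degrading protease, was at 135 and 197 CPM in COLD and 33.0 and 45.6 in CL (2.10 ± 0.30, edgeR adjusted p = 0.0704, with the block 0.000762), and Abca1, the cholesterol exporter, at 91.1 and 74.3 against 182 and 139 (-0.95 ± 0.16, adjusted p = 0.0899, with the block 0.0251). MHC class II genes had a median of -0.92 with 0 of 8 called. The 1 gene with an unadjusted p under 0.05, H2-DMb2, went against that median (0.91), and the CL libraries disagreed, with H2-Ab1 at 1534 and 5166 CPM. Cell cycle genes had a median of -0.98 with 0 of 18 called (6 unadjusted), while the block called Hmgb2 and Mki67, and DESeq2 Birc5, Hmgb2 and Stmn1. CL replicate 1 stood highest: Top2a was at 105 CPM there, at 23.6 in CL replicate 2 and at 35.9 and 28.3 in COLD. Of the 18 genes 0 were on the COLD side, where 48.6% of all genes tested were. The groups did not overlap in 6 of the 18, with CL above COLD in each, against 43% of all genes in either direction. One of them was Hmgb2, at 237 and 189 CPM in CL and 123 and 117 in COLD. Of chemokine and receptor genes, Ccl8 and Ccl24 passed, and the monocyte attractants Ccl2 (1195 and 1319 against 623 and 549.5) and Ccl7 (939.7 and 978 against 535 and 251) passed with the block and by DESeq2, as did Cxcl10.

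The same contrast in other macrophage-gated cells, fitted alone, called 18 of 10649 genes (0.169%), 8 higher (0.0751%) and 10 lower (0.0939%) in COLD. Cd163 (log2 difference -2.07, edgeR adjusted p = 0.0424) and Phlda3 (1.92, edgeR adjusted p = 0.0462) passed there too. Ccl8 had a log2 difference of -3.53 in those cells (edgeR adjusted p = 0.0689) and F13a1 of -1.47. A test of the difference between the cell sets, added after seeing the data, called 16 of 11243 genes (0.142%), 3 higher (0.0267%) and 13 lower (0.116%) in the members. Cd163 was among them (log2 difference -4.11 in the members and -2.07 in the other cells, edgeR adjusted p = 0.0368). Its call was lost with both cell sets thinned to a common depth (difference -2.05, edgeR adjusted p = 0.117) and without C57 COLD replicate 1 (-2.46, edgeR adjusted p = 0.333). For the other 11 named genes the difference between the sets did not pass, with edgeR adjusted p of 0.166 to 0.931, which does not show that they acted alike.

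The third comparison set the members against RT. With 13 and 16 RT cells a fit at the planned minimum of 20 cells was not possible, and a minimum of 10 cells was used instead. COLD against RT gave 0 of 10309 genes (0%; 1105 at an unadjusted p under 0.05, 158 by DESeq2, 38 with the block). CL against RT gave 2 genes (0.0194%), Ccl8 (43.8 and 149 CPM at RT, log2 difference 4.24, edgeR adjusted p = 0.0204) and Hbb-bs, a hemoglobin gene (0 and 9.33 CPM at RT, 1046 and 2937 in CL), and neither passed when either RT library was left out. Hemoglobin genes are transcribed in red cell precursors, and the erythroid list summed to 0 and 9.33 CPM in RT and to 1778 to 5293 CPM in the 6 other libraries. Other macrophage-gated cells of the same C57 RT libraries held 2548 and 6610 CPM of that list, and the low RT values rest on 13 and 16 cells. The comparisons share the RT libraries.

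For KO against WT only the cold libraries held enough members, 101 and 447 cells, so the difference has no replicate check and no test. Of 5275 genes at 20 CPM or more in either library, 126 (2.39%) were at least 2-fold higher and 38 (0.72%) at least 2-fold lower in KO members, against 50 (0.955%) and 35 (0.668%) of 5236 in other macrophage-gated cells. With a gate sum of at least 6, 148 (2.8%) were higher and 62 (1.17%) lower. The KO members summed to 857584 counts and the WT members to 3.27e+06. Among markers of other cells, 4 of 4 erythroid and 3 of 5 neutrophil genes were at least 2-fold higher in KO members. In other macrophage-gated cells these were 0 of 6 in each list. The part of depth and of such RNA in these counts was not tested. The largest rises were Mt3 (159 against 3.67 CPM), Ifit1bl1 (84.5 against 8.83), Cxcl10 (535 against 83.9), Ifit3 (385 against 60.5) and Lilra5 (24.2 against 3.05). Ifit3 and Cxcl10 were also higher in KO among other macrophage-gated cells (log2 2.27 and 2.54), and Mt3 was not (-2.37). Of the 20 interferon response genes, 15 were at least 2-fold higher in KO members and 12 in other macrophage-gated cells, where the list summed to 9132 CPM in KO and 5406 in WT, and none was 2-fold lower in either. The largest falls were Retnla (23.0 against 208 CPM), Ednrb (11.5 against 57.7), Npy (6.99 against 29.2), Flrt3 (4.64 against 20.3) and Casp8ap2 (5.75 against 23.8). Of the 20 genes highest over other macrophage-gated cells, Fabp4 was more than 2-fold lower in KO (384 against 1305 CPM). Others lay closer together, with Spp1 at 3762 (Poisson interval 3633 to 3894) and 4280.4 (4209.7 to 4352), Ctsd at 4993 and 5669, Lpl at 1158 and 1319 and Fabp5 at 3025 and 4686 CPM in KO and WT. These intervals cover counting error only, and 1 pool stood for each genotype.

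The study followed proliferation of stromal cells in the same mice, so the share of members was set beside the share of stromal cells in the Lin- library of the same pool that expressed cycling genes. Cycling stromal cells were 0% to 0.378% in the RT experiments, 11.8%, 7.78%, 8.36% and 4.81% in C57 COLD, WT COLD and KO COLD, and 6.996% and 1.30% in C57 CL. RT formed a separate cluster in both measures. Over the 6 COLD and CL experiments Pearson's r was 0.655 (exact permutation p = 0.192) and Spearman's rho 0.714 (p = 0.136), both 0.192 after adjustment over these 2 tests. Without C57 CL replicate 2 and C57 COLD replicate 1, the 2 farthest on the stromal measure, r was 0.389 over 4 experiments. These were its lowest and highest values, so leaving them out narrows the range. The drop therefore cannot show whether the relation rests on those experiments. With cells thinned to 1500 UMIs and those with fewer left out, r was higher, at 0.807 (exact permutation p = 0.05, adjusted p = 0.1). Spearman's rho was 0.714 again. The gate found 1 cell in the Lin- fraction of C57 COLD replicate 1 (of 9306) and 0 in the other 9 Lin- libraries.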

How the data were processed

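Single-cell RNA-seq (10x Chromium) was done by the authors on Lin+ and Lin- stromal vascular cells of mouse iBAT. The deposited matrices hold estimated counts: the authors counted UMIs with Cell Ranger 3.0.1 on mm10 and removed free RNA with SoupX, taking Fabp4 and Car3 as not expressed, so 97.6% to 99.5% of the nonzero values in the Lin+ libraries are not whole. This correction can lower true counts of shared genes.

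Lin+ cells with under 10% mitochondrial counts, a total under 15000 and 500 to 4000 genes were kept, between 2196 and 8193 per library, and gated as in the report. The members, gene lists and tests were chosen with earlier results of these data known. Counts were summed per library over members (at least 20 cells), rounded, and tested with edgeR 4.0.16 (R 4.3.3) by the quasi-likelihood test with TMM factors, filterByExpr and Benjamini-Hochberg adjustment at 0.05. DESeq2 1.42.0 was an alternative. CPM are sums over cells, not corrected for length, so levels of different genes were not compared. Shares were compared by exact permutation over libraries. Likely doublets stayed in, except in 1 alternative without the top 6% of Scrublet scores per library.

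The RT libraries held under 20 members, so the planned tests against RT, in the Adrb1 line and between genotypes could not be run as planned. Fits with at least 10 cells, the difference between cell sets in COLD against CL, and the fold between genotypes were chosen after seeing the data. Named genes were the 10 largest rises and falls past the threshold with groups that did not overlap and a mean of at least 20 CPM in the higher group, without gate, mitochondrial, ribosomal and unnamed genes (5 and 5 between genotypes), and, against other macrophage-gated cells, the 20 highest and 10 lowest median ratios at 100 CPM or more. List members were named as examples. Of the genes named by this rule between COLD and CL, 1 is not reported here. C57 libraries of the same number were taken to come from the same experiment, because the study's methods speak of replicate experiments. The labels do not state this pairing outright. The deviations of same-numbered COLD and CL libraries from their group means correlated at r = 0.12.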

Additional observations from a re-analysis of the deposited data

Results flagged for a closer look

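The difference between COLD and CL itself differed between the Gpnmb Trem2 macrophages and other macrophage-gated cells of the same C57 libraries for 16 of 11243 genes (0.142%) in edgeR's quasi-likelihood test with the library as a block, a comparison chosen after seeing the data. Given as the log2 difference in the members minus that in the other cells, 13 genes were below 0. Among them Lyz1 was at -2.09, the scavenger receptor gene Cd163 at -2.003, the sterol synthesis gene Fdps at -1.58, Arl5c at -1.17, fibronectin Fn1 at -1.09, Fgl2 at -1.03, Clec4b1 at -0.96 and Manf at -0.93. The cell division genes Hmmr (-1.73), Asf1b (-1.53), Cenpe (-1.48), Ccnb2 (-1.39) and Birc5 (-1.19) made up the rest. Birc5 was at 46.1 and 43.2 CPM in COLD members and 186 and 58.1 in CL members, against 99.5 and 93.6 in COLD and 159 and 68.6 in CL among the other cells, so that CL replicate 1 stood above the other libraries in both cell sets.

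Above 0 were Igf1 (1.16), Chchd10 (1.43) and Plpp3 (3.38). Igf1 was at 557 and 489 CPM in COLD members and 641 and 408 in CL members, whereas in other macrophage-gated cells it was at 157 and 97.4 in COLD and 387 and 197 in CL. The count was 105 against resident-type cells alone, 0 when both cell sets were thinned to a common depth (901 at an unadjusted p under 0.05), and 2 without C57 COLD replicate 1. The member shares of the 4 RT and the 4 COLD libraries held no outlying library by Dixon's test.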

How the results depend on the processing

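The share differences in C57 mice kept their direction under thinning, the macrophage denominator, both other gate sums and removal of likely doublets. Leaving out 1 library gave 17.2 to 20.3 points for COLD minus RT, 5.01 to 19.4 for CL minus RT, -0.624 to 13.8 for COLD minus CL (reversed without CL replicate 2), 8.34 to 14.3 for COLD minus RT over both lines, and -3.86 to 1.44 for KO minus WT, which was 0.0714 without KO RT and 1.44 without WT COLD. Over both lines, leaving out 1 RT library (11.3 to 11.4 points) gave p = 0.0857 in the exact permutation test.

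With the replicate number as a block (taken as pairing by experiment), calls in the members were 232 for COLD against CL. They were 38 for COLD against RT and 25 for CL against RT. DESeq2 gave 189, 158 and 78, no filter on low counts gave 870, 189 and 100, and equal library depth gave 26 (13 of the 19 among them), 9 and 7, the last 2 out of 1631 genes tested. Leaving out 1 library gave 14 to 976, 0 to 37 and 0 to 274, and 2 to 206 for the difference between cell sets, where resident-type comparison cells gave 105 and a common depth 0. COLD against CL gave 49 without COLD replicate 1, 862 without CL replicate 1, 976 without CL replicate 2 and 0 at a gate sum of 6. The cause of these shifts was not tested. Where 1 library was left in a group, it was assumed to vary like the others. With resident-type comparison cells the differences of Arl5c (0.83) and Clec4b1 (0.12) reversed. At a gate sum of 6, 62 genes were at least 2-fold lower in KO. For the 12 named genes of COLD against CL, 122 of the alternative values kept direction and call and 22 kept direction only.

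The fits with RT at a minimum of 20 cells, the Adrb1-line fits and their alternatives, RT fits at a gate sum of 6 (4 and 8 RT cells) and the planned difference in COLD response were not run. Depth limits the RT members most, with 88475 and 106136 summed counts against at least 2112291 in the other C57 libraries.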
